A study of Mus musculus with 6 samples.

Results

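The 40 genes described here encode 30 collagen chains that are not among the main chains of cartilage and 10 proteins that modify, fold or trim procollagen. They were taken by symbol: every probe set that the annotation of the array assigns to exactly 1 of the 40 symbols was used, which gave 74 probe sets, and all 40 genes were measured. The array measured 18161 genes in all. For each gene, the probe set with the highest mean over the 6 samples stands for the gene, so the choice of probe sets did not use the difference between the groups. The genes themselves were chosen with earlier results of these data known, so their shares against all genes describe this list only. No filter on low values was applied. In 3 of the genes, Col24a1, Col19a1 and Col17a1, both group means lay below 5.35, the median of all values on the arrays, and such values are called dim below.

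RNA came from the mesenchyme of the trachea of adult male C57Bl/6 mice. There were 3 samples taken 48 h post injury (48 hpi), after 4 h in 500 ppm sulfur dioxide (SO2), and 3 samples of uninjured controls. Each sample pooled 4 mice, so the spread between samples is a spread between pools. No transgene or other agent is named for either group. The mesenchyme is what was left after 23 min in dispase and removal of the epithelial sheet with forceps, and it was not sorted further. It can therefore hold fibroblasts, cartilage, smooth muscle, vessels, nerves and blood cells together, and in such bulk tissue fewer cells of a type and less RNA per cell cannot be told apart.

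Collagens are extracellular proteins in which chains wind into a helix. Fibril-forming chains build the tension-bearing fibers of connective tissue, type IV chains build the sheet-like network of basement membranes, and others coat fibrils, form beaded filaments or span the cell membrane. Before secretion, prolines and lysines of the chains are hydroxylated and the helix is folded with the help of chaperones. After secretion, the end pieces of fibrillar procollagens are cut off and the fibers are crosslinked. In the trachea, the basement membrane lies between the basal cells of the epithelium and this mesenchyme.

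At 48 hpi a few collagen genes rose and a few fell. Col18a1 and P4ha3 rose to more than 2 times their control level, whereas Pcolce2, Col8a2, Col4a4 and Col4a6 fell to between 0.565 and 0.631 of it. Thus 2 of the 40 genes (5.0%) passed the test as higher, against 4.98% of all genes, and 4 (10.0%) passed as lower, against 1.24% of all genes. Together, 6 of the 40 passed, against 6.22% of all genes. The test was limma across all probe sets, with Benjamini-Hochberg adjustment and a threshold of 0.05. The median log2 fold change, 48 hpi minus control, was -0.06 over the 40 genes and -0.01 over all genes, and it lay above 0 in 19 of the 40 (47.5%), against 46.8% of all genes. Only Col18a1 and P4ha3 changed more than 2-fold, which is 5.0% of the 40 genes and was seen in 2.49% of all genes.

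Much of the spread within a group followed the replicate number. In 24 of the 40 genes (60.0%), the sample numbered 1 was the lowest of the 3 in both groups, which held for 12.4% of all genes. The 48 hpi sample differed from the control sample of the same number in the same direction in all 3 pairs for 32 of the 40 genes (80.0%), against 53.9% of all genes. These were 16 genes with 3 positive differences, against 26.6% of all genes, and 16 with 3 negative ones, against 27.3%. When the replicate number was added to the limma fit as a block, 10 of the 40 genes (25.0%) passed as higher, against 8.79% of all genes, and 11 (27.5%) passed as lower, against 4.65%. The 6 genes called without the block were called with it. The labels do not say what a replicate number marks, so in the following each gene that passed with the block and not in the fit by group alone is named as such. Beside counts of 0, the number of genes with an unadjusted p under 0.05 is also given. Over the 40 genes limma gave such a p to 8 higher and 12 lower genes, against 14.6% and 9.29% of all genes, and 23.9% of all genes had one in either direction, or 30.9% with the block.

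**Figure D1:**
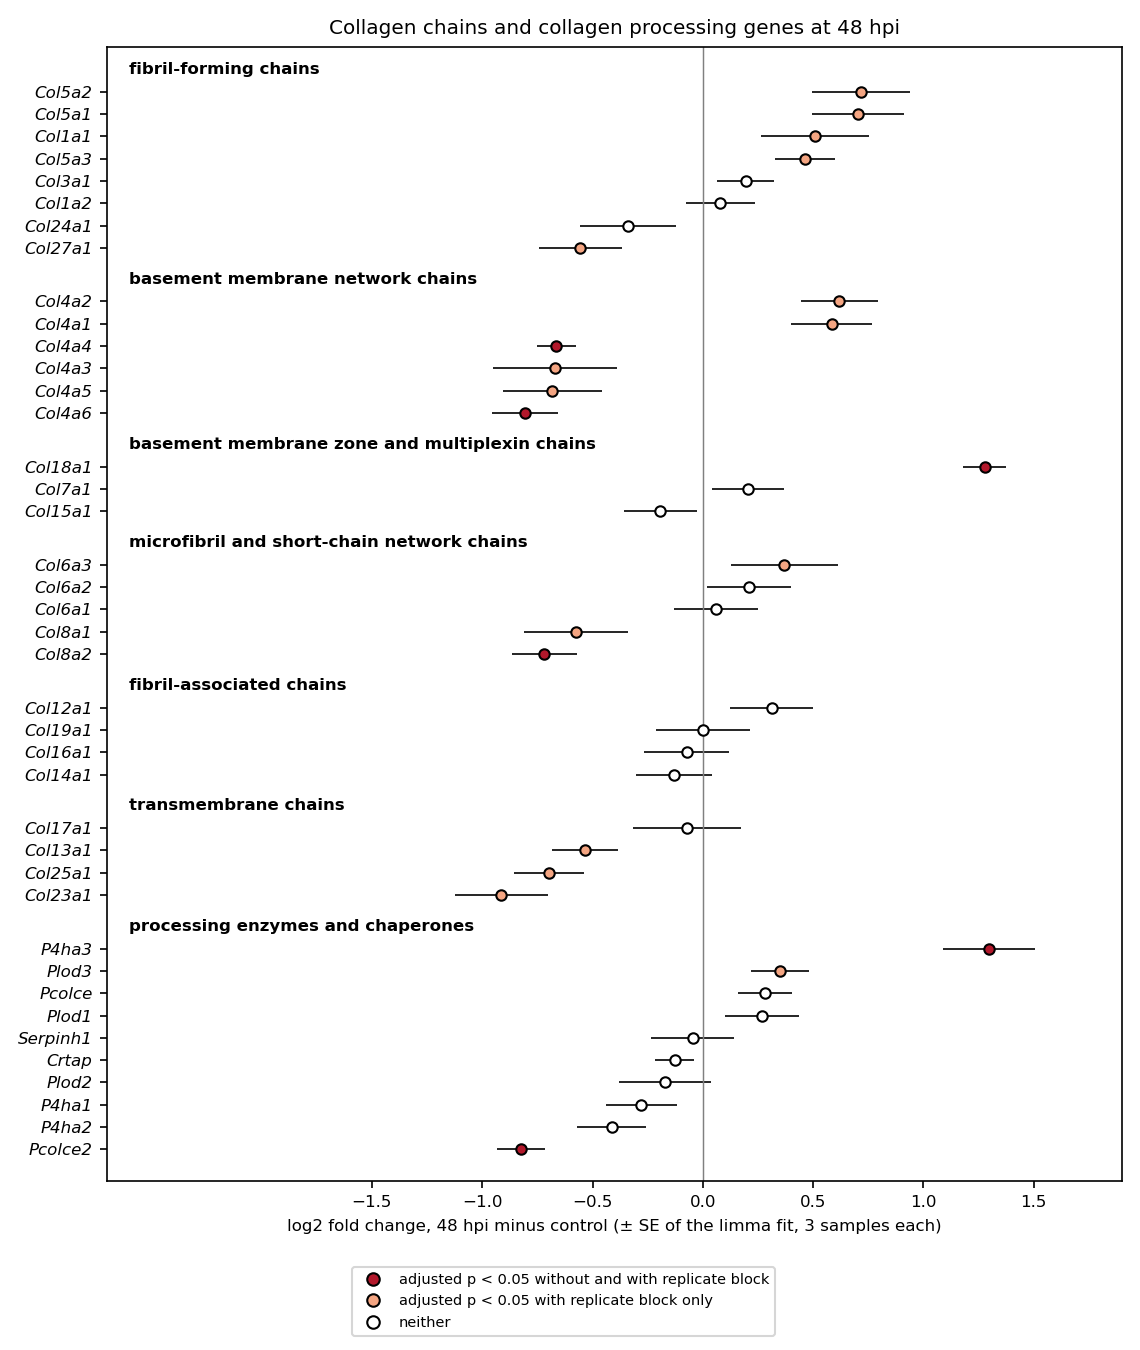
The log2 fold change, 48 hpi minus control, is plotted on the x axis for each of the 40 genes, grouped by role. Points are the difference of the means of 3 samples each, and bars are the SE of the limma fit. Col18a1 at 1.28 and P4ha3 at 1.30 stand to the right, and Col23a1 at -0.91 is farthest to the left.

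The promoter sequences shown next belong to the genes that rose more than 2-fold and to type IV chain genes that lie in pairs transcribed away from each other. The windows of Col4a4, Col8a2 and Pcolce2, which fell, are not shown, and no promoter was matched for Col4a3. The printed sequences are taken from RefSeq for assembly GRCm38.p6. They are given on the strand of the gene, from 150 bases before the listed start up to the base before it. Capitals mark every match to the GC box, GGGCGG, on either strand. RefSeq lists 2 starts for Col18a1, and which of them gave the RNA measured here was not tested. The 5 windows lie at chr10:77166531-77166680 and chr10:77113706-77113855 on the minus strand for Col18a1, at chr7:100285370-100285519 on the plus strand for P4ha3, and at chrX:141474077-141474226 on the minus strand for Col4a6. The window of Col4a5 is at chrX:141475269-141475418 on the plus strand.
Col18a1, upstream start: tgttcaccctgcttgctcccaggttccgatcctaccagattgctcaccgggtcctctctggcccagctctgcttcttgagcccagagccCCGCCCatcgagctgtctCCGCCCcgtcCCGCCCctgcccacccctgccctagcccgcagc
Col18a1, downstream start: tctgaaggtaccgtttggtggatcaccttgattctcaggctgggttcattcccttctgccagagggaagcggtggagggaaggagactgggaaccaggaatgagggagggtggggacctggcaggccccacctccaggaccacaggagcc
P4ha3: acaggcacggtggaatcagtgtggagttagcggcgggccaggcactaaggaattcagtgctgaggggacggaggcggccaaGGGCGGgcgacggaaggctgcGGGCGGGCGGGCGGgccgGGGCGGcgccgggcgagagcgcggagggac
Col4a6: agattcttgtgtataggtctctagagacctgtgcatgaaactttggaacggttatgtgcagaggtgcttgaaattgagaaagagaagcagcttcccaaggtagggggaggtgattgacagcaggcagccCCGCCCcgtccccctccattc
Col4a5: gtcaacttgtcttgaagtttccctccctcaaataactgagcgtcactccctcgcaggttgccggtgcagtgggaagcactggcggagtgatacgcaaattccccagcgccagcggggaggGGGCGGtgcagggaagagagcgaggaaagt

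The upstream window of Col18a1 held 3 GC boxes and the downstream window none. The window of P4ha3 held 5 and those of Col4a6 and Col4a5 held 1 each, with overlapping matches counted. Of the windows not shown, that of Col8a2 held 4, that of Pcolce2 held 1 and that of Col4a4 held 0. Col4a6 and Col4a5 begin 1343 bases apart and are read in opposite directions. The starts of Col4a1 and Col4a2 are 21 bases apart, so that both genes share the 22 bases at chr8:11312805-11312826, shown on the plus strand because both genes of the pair start within it.
Col4a1 and Col4a2: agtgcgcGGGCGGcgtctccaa

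A promoter was matched for 34 of the 40 genes. Among these, 19 (55.9%) held a GC box in the 150 bases, against 31.3% of the 27025 genes with a listed promoter. Those 27025 were not limited to the genes of the array. The CCAAT box, searched as CCAAT, was found in 6 (17.6%) and in 27.7% of the 27025. The TATA box, TATAAA, was found in 3 (8.82%) and in 8.89% of the 27025, and the AP-1 motif, TGANTCA, in 1 (2.94%) and in 4.96%. Both strands were searched, and the counts describe letters in these windows only.

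The type IV collagen genes split by the sign of their change. Col4a1 and Col4a2 encode the chains of the network found in nearly all basement membranes, and Col4a3 to Col4a6 encode chains of networks restricted to some of them, such as those of kidney glomeruli, lung and parts of smooth muscle and skin. Of the 6 genes, 2 fell in limma (Col4a4 and Col4a6), against 1.24% of all genes, and none passed as higher, against 4.98%. The unadjusted p in limma was under 0.05 for 2 higher and 4 lower genes (14.6% and 9.29% of all genes). With the replicate block all 6 passed, Col4a1 and Col4a2 as higher and Col4a3 to Col4a6 as lower. Over all genes, 8.79% passed with the block as higher and 4.65% as lower.

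Col4a4 measured 6.91, 6.87 and 6.80 on the log2 scale at 48 hpi, against 7.63, 7.42 and 7.53 in controls. Every 48 hpi sample lay below every control, and the spread within each group was small beside the gap. The means were 6.86 ± 0.0591 at 48 hpi and 7.52 ± 0.105 in controls (SD, n = 3 each), a log2 fold change of -0.66 ± 0.09 (SE), or 0.631 of control (limma, adjusted p = 0.0111). All 3 probe sets of the gene were called, with log2 fold changes between -0.79 and -0.66. The call was lost without 48 hpi replicate 3 (limma, adjusted p = 0.0624) or control replicate 3 (0.051).

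Col4a6 measured 6.36, 6.84 and 6.41 at 48 hpi, against 7.24, 7.50 and 7.28 in controls. Replicate 2 was the highest sample of either group, and the groups did not overlap. Its log2 fold change was -0.81 ± 0.15 (limma, adjusted p = 0.0316), 0.572 of control. Col4a6 was called without 48 hpi replicate 2 (0.0144) but not without any one of the other samples, where the limma adjusted p was 0.0861 without 48 hpi replicate 1, 0.134 without 48 hpi replicate 3, and 0.0637, 0.0991 and 0.0964 without control replicates 1, 2 and 3. The second, dimmer probe set of Col4a6 had a log2 fold change of -0.62 and did not pass (adjusted p = 0.388, and 0.0233 with the block).

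Col4a5, the neighbor of Col4a6 on the X chromosome, measured 9.31, 9.79 and 9.30 at 48 hpi and 9.75, 10.57 and 10.13 in controls. One 48 hpi sample, number 2, lay above the lowest control, so the groups overlapped. On the log2 scale the fold change was -0.68 ± 0.23, with an adjusted p of 0.157 in limma and 0.012 with the block. Col4a3, whose mean at 48 hpi was below the median of the arrays, measured 4.90, 4.69 and 5.46 at 48 hpi, against 5.54, 5.29 and 6.24 in controls. The groups overlapped, although each 48 hpi sample was lower than the control of the same number by 0.59 to 0.78, and the log2 fold change of -0.67 ± 0.28 had an adjusted p of 0.258, or 0.00711 with the block. A second probe set of Col4a3 did not share this difference, at 0.05 (adjusted p = 0.797 with the block).

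Col4a1 measured 11.45, 11.84 and 11.90 at 48 hpi, against 10.86, 11.46 and 11.12 in controls. Its lowest 48 hpi sample and highest control sample were nearly equal, and within each number the 48 hpi sample was higher, by 0.59, 0.38 and 0.78. For Col4a1 the log2 fold change was 0.58 ± 0.18, 1.5 times control, with an adjusted p of 0.141 in limma and 0.0184 with the block. Col4a2, which shares its start region with Col4a1, measured 10.33, 10.77 and 10.75 at 48 hpi and 9.74, 10.27 and 9.99 in controls. Here all 48 hpi samples lay above all controls, though by little. For Col4a2 it was 0.62 ± 0.17 (adjusted p = 0.106, and 0.0107 with the block).

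**Figure D2:**
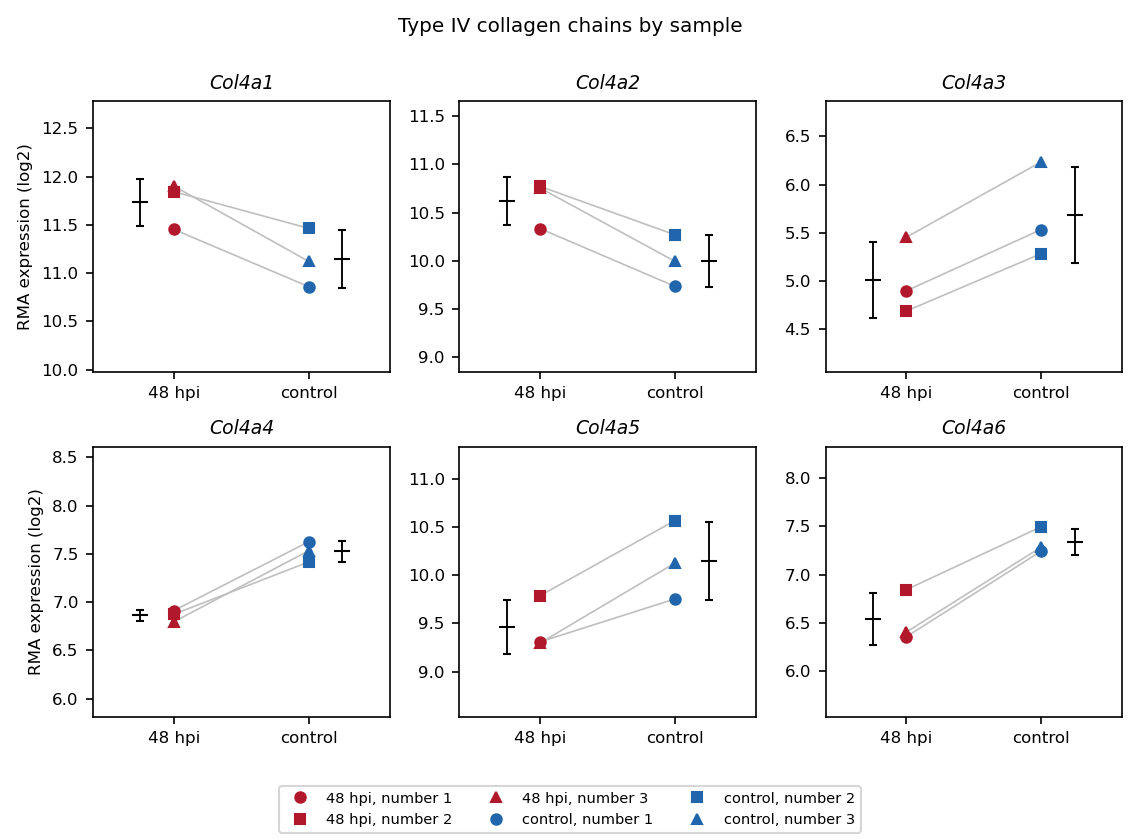
RMA expression (log2, y axis) of the 6 type IV collagen genes in the samples at 48 hpi (left, red) and in controls (right, blue), with lines joining samples of the same number and bars at the mean ± SD of 3 samples. Lines fall to the right for Col4a1 and Col4a2, where 48 hpi is higher, and climb to the right for Col4a3 to Col4a6, where control is higher.

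Among the other collagens of the basement membrane zone, Col18a1 rose, and neither Col7a1 nor Col15a1 passed in either fit. Col18a1 encodes the core of a heparan sulfate proteoglycan of epithelial and vascular basement membranes whose end piece is endostatin. It measured 9.68, 9.62 and 9.69 at 48 hpi, against 8.53, 8.39 and 8.23 in controls. The samples at 48 hpi were nearly identical and far above the controls. The means were 9.66 ± 0.0398 at 48 hpi and 8.38 ± 0.145 in controls (SD, n = 3 each), and their log2 fold change was 1.28 ± 0.10 (95% interval 1.05 to 1.51), 2.42 times control (limma, adjusted p = 0.0011). The second probe set gave 1.13 ± 0.09 (adjusted p = 0.00106). The call was kept without any one of the 6 samples, with adjusted p between 0.00374 and 0.01.

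Col15a1, the closest relative of Col18a1, measured 8.73, 9.14 and 8.66 at 48 hpi, against 8.92, 9.29 and 8.90 in controls. The groups overlapped, and the log2 fold change was -0.19 ± 0.17 (95% interval -0.58 to 0.20, limma adjusted p = 0.578). Col7a1, which forms the fibrils that anchor the basement membrane to the tissue beneath, measured 6.14, 6.63 and 6.23 at 48 hpi, against 5.90, 6.16 and 6.32 in controls, with overlapping groups and a log2 fold change of 0.21 ± 0.16 (adjusted p = 0.549).

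Of the 8 fibril-forming chains, none passed limma without the block, where 3 had an unadjusted p under 0.05 as higher and 1 as lower (14.6% and 9.29% of all genes). With the block 4 passed as higher (Col1a1, Col5a1, Col5a2 and Col5a3) and 1 as lower (Col27a1), against 8.79% and 4.65% of all genes. The median log2 fold change of the 8 was 0.33.

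Type V chains, which start and limit the width of type I fibrils, all had log2 fold changes above 0. Col5a1 measured 10.03, 10.57 and 10.53 at 48 hpi and 9.32, 9.99 and 9.70 in controls. Col5a2 measured 12.43, 12.78 and 12.80 at 48 hpi and 11.46, 12.33 and 12.06 in controls, and Col5a3 measured 7.90, 8.28 and 8.06 at 48 hpi and 7.47, 7.82 and 7.55 in controls. In all 3 genes every 48 hpi sample exceeded every control, by less than the spread within a group, and replicate 1 was the lowest sample on both sides. The log2 fold changes were 0.70 ± 0.21 for Col5a1, 0.72 ± 0.22 for Col5a2 and 0.46 ± 0.14 for Col5a3. Their limma adjusted p-values were 0.121, 0.138 and 0.119, and with the block 0.00674, 0.0135 and 0.0193. Further probe sets of Col5a1 gave 0.39 and 0.51 and that of Col5a2 gave 0.53, whereas the dim second probe set of Col5a3 gave -0.00.

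Col1a1, the major chain of type I collagen, measured 11.61, 12.25 and 11.95 at 48 hpi and 10.94, 11.76 and 11.58 in controls. The groups overlapped, and the sample numbered 1 was lowest in both. Its log2 fold change was 0.51 ± 0.25 (adjusted p = 0.321, and 0.0221 with the block), and a second probe set gave 0.22 (0.174 with the block). For Col1a2, its partner chain in type I collagen, the values were 13.23, 13.62 and 13.50 at 48 hpi and 13.09, 13.58 and 13.44 in controls. Its log2 fold change was 0.08 ± 0.16 (95% interval -0.29 to 0.45), with an adjusted p of 0.83, or 0.6 with the block.

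Type III collagen, which accompanies type I in distensible tissues, is encoded by Col3a1. It measured 14.03, 14.19 and 14.14 at 48 hpi and 13.68, 14.14 and 13.95 in controls, a log2 fold change of 0.20 ± 0.13 (adjusted p = 0.466, and 0.242 with the block). Its probe sets differed in size: the second one gave 0.80 ± 0.26 (adjusted p = 0.148, and 0.0112 with the block). Values of the main probe set lie near the top of the array's range, and whether saturation compressed its difference was not tested.

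Col27a1, a fibrillar chain known mainly from cartilage, had lower values at 48 hpi and passed with the block but not by group alone. It measured 11.50, 12.04 and 11.92 at 48 hpi and 12.07, 12.42 and 12.63 in controls. Each 48 hpi sample was below each control, the nearest by a narrow margin. For Col27a1 the log2 fold change was -0.56 ± 0.19 (adjusted p = 0.167, and 0.0181 with the block). Chondrocyte markers moved in the same direction: 3 of 10 fell in limma and 7 with the block, against 1.24% and 4.65% of all genes. All 10 had a log2 fold change below 0. Their mean level over the list was 10.91 to 11.28 at 48 hpi and 11.66 to 11.76 in controls. Their part in the result for Col27a1 was not tested. Col24a1, a relative of Col27a1 found in developing bone, was dim, at 4.40, 5.23 and 4.79 at 48 hpi and 4.97, 5.41 and 5.05 in controls, and did not pass (adjusted p = 0.45).

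**Figure D3:**
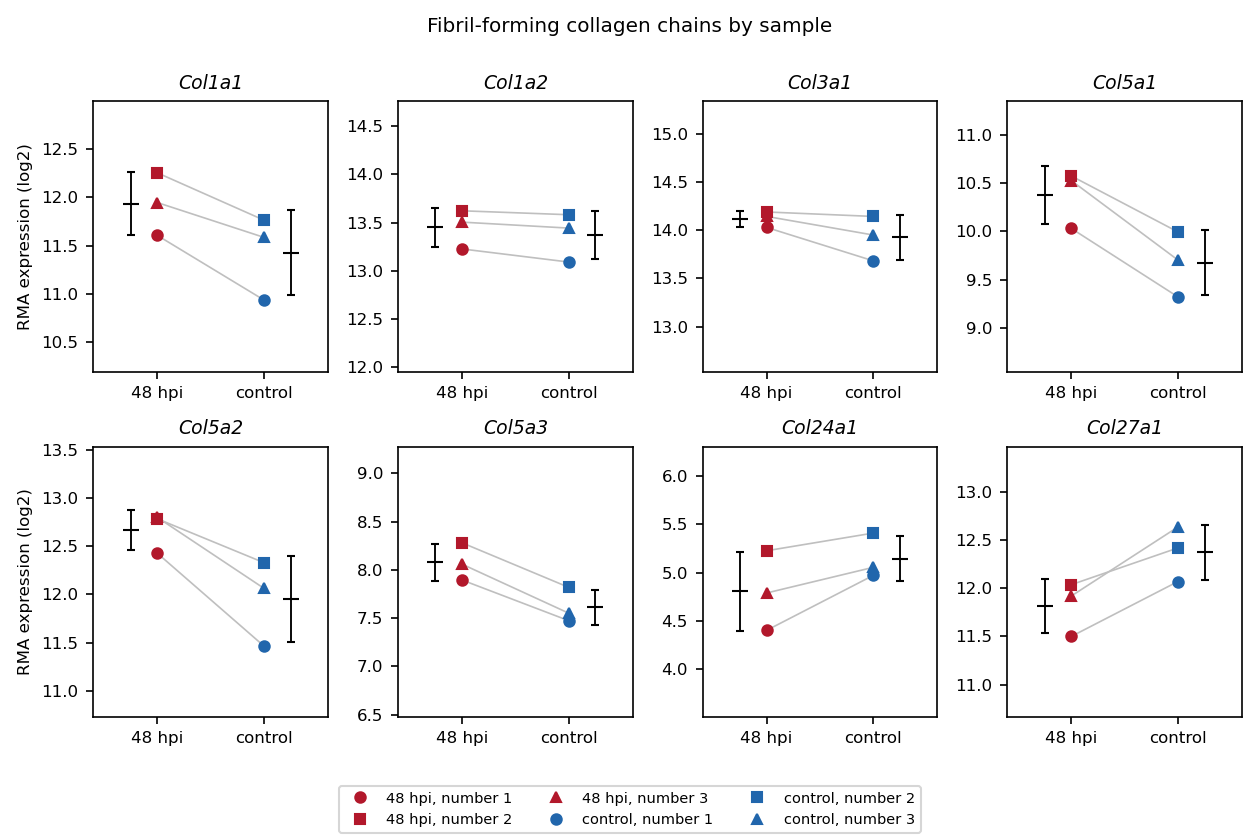
RMA expression (log2, y axis) of the 8 fibril-forming collagen genes at 48 hpi (left, red) and in controls (right, blue), 1 point per sample, with lines joining samples of the same number and bars at the mean ± SD of 3 samples. The sample numbered 1 is lowest on both sides in every panel, and the lines run down to the control for the type V genes and up to it for Col27a1.

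In the group of microfibril and short-chain network collagens, Col8a2 fell, and with the block but not by group alone Col8a1 passed as lower and Col6a3 as higher. Type VIII collagen forms sheet-like networks in vessel walls and in the membrane behind the cornea. Col8a2 measured 8.69, 8.99 and 8.43 at 48 hpi, against 9.50, 9.34 and 9.44 in controls. The groups did not overlap, and the 48 hpi samples were more spread than the controls. The means were 8.71 ± 0.284 at 48 hpi and 9.42 ± 0.0835 in controls (SD, n = 3 each), with a log2 fold change of -0.72 ± 0.15, 0.608 of control (limma, adjusted p = 0.0434). The call rested on most of the samples: it was kept without 48 hpi replicate 2 (0.0247), and lost without 48 hpi replicate 1 (0.109) or 3 (0.119) and without control replicate 1 (0.106), 2 (0.0987) or 3 (0.134).

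Col8a1 measured 10.68, 11.37 and 11.20 at 48 hpi, against 11.24, 11.96 and 11.79 in controls. The groups overlapped, yet the differences within a number were almost equal, at -0.56, -0.58 and -0.59. A log2 fold change of -0.58 ± 0.24 had an adjusted p of 0.244 in limma and 0.00953 with the block, and all 3 probe sets passed with the block, at -0.59 to -0.57.

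Type VI collagen forms beaded filaments around cells. Col6a3 measured 11.96, 12.58 and 12.51 at 48 hpi, against 11.51, 12.27 and 12.16 in controls, with a log2 fold change of 0.37 ± 0.24 (adjusted p = 0.463, and 0.04 with the block). Its partner chains did not pass in either fit: Col6a1 had a log2 fold change of 0.06 ± 0.19 and Col6a2 one of 0.21 ± 0.19. In all 3 genes the groups overlapped and replicate 1 was the lowest sample of each group.

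Fibril-associated chains sit on the surface of fibrils. Of these 4 genes limma called 0, with an unadjusted p under 0.05 in 0 genes (23.9% of all genes) and in 1 with the block (30.9%), which also called 0. Col12a1 measured 8.32, 8.84 and 8.84 at 48 hpi and 8.05, 8.43 and 8.58 in controls (0.31 ± 0.19, adjusted p = 0.43). Col14a1, the other type of this kind found in dense connective tissue, had -0.13 ± 0.17 and Col16a1 had -0.07 ± 0.19. Col19a1 was dim and gave 0.00 ± 0.21.

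All 4 transmembrane collagens had log2 fold changes below 0. In limma none of the 4 passed, with an unadjusted p under 0.05 in 3 (23.9% of all genes). The same 3 genes, Col13a1, Col23a1 and Col25a1, passed as lower with the block, against 4.65% of all genes. Col23a1 measured 8.77, 8.68 and 8.24 at 48 hpi, against 9.72, 9.06 and 9.64 in controls. The groups did not overlap, and control replicate 2 lay closest to the 48 hpi samples. Col23a1 had a log2 fold change of -0.91 ± 0.21, 0.531 of control (adjusted p = 0.0622, and 0.0254 with the block), and without the block it was 0.0421 without control replicate 2, 0.0474 after removal of dim probe sets and 0.0342 for the average of its probe sets. Another probe set of Col23a1 passed limma by itself (-0.84, adjusted p = 0.0281).

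Col25a1, a collagen known from neurons and the innervation of muscle, measured 7.82, 7.76 and 7.83 at 48 hpi, against 8.19, 8.83 and 8.49 in controls. The 48 hpi samples were tightly grouped below the more spread controls. Col25a1 had a log2 fold change of -0.70 ± 0.16 (adjusted p = 0.0584, and 0.0254 with the block), and without the block it was 0.0268 without control replicate 1, 0.0442 after removal of dim probe sets and 0.043 after a second quantile normalization. A second probe set gave 0.01. Schwann and nerve markers were also lower: 1 of the 4 measured fell in limma and 2 with the block, against 1.24% and 4.65% of all genes. Their mean level over the list was 8.56 to 8.95 at 48 hpi and 9.12 to 9.22 in controls. Their part in the result for Col25a1 was not tested.

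Col13a1, a component of cell-matrix junctions and of the neuromuscular synapse, measured 6.21, 6.11 and 5.84 at 48 hpi, against 6.85, 6.48 and 6.43 in controls. The groups did not overlap, and the log2 fold change was -0.53 ± 0.15 (adjusted p = 0.106, and 0.0182 with the block). Col17a1, which belongs to the hemidesmosomes of basal epithelial cells, was dim, at 5.07, 4.85 and 4.24 at 48 hpi and 4.86, 4.43 and 5.10 in controls. Its difference was within the spread of the samples (-0.07 ± 0.25, adjusted p = 0.909). Of 13 markers of airway epithelium limma called 0, with an unadjusted p under 0.05 in 1 (23.9% of all genes). With the block it called 1 as higher and 1 as lower, against 8.79% and 4.65% of all genes. The 1 called as higher was Krt19 (0.80 ± 0.41, adjusted p = 0.346, and 0.0246 with the block). The 1 called as lower was Scgb1a1, at 12.31, 9.90 and 8.72 at 48 hpi and 13.46, 12.69 and 12.50 in controls. Its log2 fold change of -2.57 ± 0.82 (adjusted p = 0.146, and 0.0146 with the block) was the lowest of all genes. The mean level of the 13 was 6.85 to 7.93 at 48 hpi and 6.95 to 7.84 in controls, so epithelial RNA was present in both groups. That mean does not show the changes of single markers.

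Among the 10 processing genes, P4ha3 rose, Pcolce2 fell, and Plod3 passed as higher with the block but not by group alone. P4ha3 encodes a catalytic subunit of prolyl 4-hydroxylase, which makes the hydroxyproline that holds the helix together. It measured 6.33, 6.08 and 6.42 at 48 hpi, against 5.34, 5.08 and 4.52 in controls. The groups did not overlap, the controls were more spread than the 48 hpi samples, and the controls lay below the median of all values on the arrays. The means were 6.27 ± 0.172 at 48 hpi and 4.98 ± 0.418 in controls (SD, n = 3 each), with a log2 fold change of 1.30 ± 0.21 (95% interval 0.81 to 1.79), 2.46 times control (limma, adjusted p = 0.0201). The only probe set of the gene gave these values. The call was lost without 48 hpi replicate 1 (0.0611), 48 hpi replicate 3 (0.0952) or control replicate 2 (0.0623).

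The other catalytic subunits of this enzyme passed in neither fit. P4ha1 had a log2 fold change of -0.28 ± 0.16 (adjusted p = 0.407). P4ha2 measured 9.01, 9.40 and 9.04 at 48 hpi, against 9.39, 9.46 and 9.83 in controls, with overlapping groups and -0.41 ± 0.16 (adjusted p = 0.213). The difference between the change of P4ha3 and those of the other subunits was not tested.

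Pcolce2 encodes an enhancer of the protease that removes the C-terminal end piece of fibrillar procollagens. It measured 10.57, 10.45 and 10.25 at 48 hpi, against 11.19, 11.34 and 11.20 in controls. The gap between the groups was wider than the spread within either. The means were 10.42 ± 0.161 at 48 hpi and 11.25 ± 0.0823 in controls (SD, n = 3 each), with a log2 fold change of -0.82 ± 0.11 (95% interval -1.08 to -0.57), 0.565 of control (limma, adjusted p = 0.00948). It was kept without any one of the 6 samples, with adjusted p between 0.0175 and 0.0422. Its relative Pcolce, with the same activity, measured 11.43, 11.53 and 11.50 at 48 hpi and 11.15, 11.01 and 11.45 in controls, with 0.28 ± 0.12 between the groups on the log2 scale (adjusted p = 0.276).

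**Figure D4:**
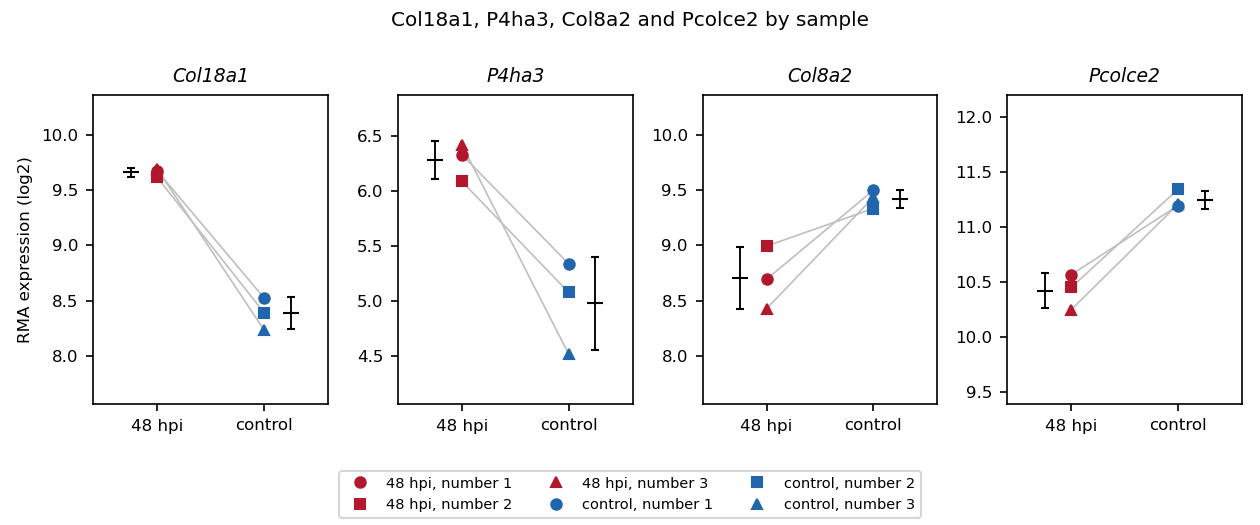
RMA expression (log2, y axis) of Col18a1, P4ha3, Col8a2 and Pcolce2 at 48 hpi (left, red) and in controls (right, blue), 1 point per sample, with lines joining samples of the same number and bars at the mean ± SD of 3 samples. Groups do not overlap in any panel, with 48 hpi above control for Col18a1 and P4ha3 and below it for Col8a2 and Pcolce2.

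Lysyl hydroxylases prepare the chains for glycosylation and crosslinking. Plod3 measured 8.92, 9.07 and 9.23 at 48 hpi, against 8.50, 8.79 and 8.87 in controls, and every 48 hpi sample lay above every control by a small margin. Its log2 fold change was 0.35 ± 0.13 (adjusted p = 0.204, and 0.0467 with the block). Plod1 at 0.27 ± 0.17 and Plod2 at -0.17 ± 0.21 did not pass in either fit. Serpinh1, the collagen-specific chaperone of the endoplasmic reticulum, measured 11.96, 12.37 and 12.24 at 48 hpi, against 11.89, 12.25 and 12.58 in controls. The groups overlapped, with a log2 fold change of -0.05 ± 0.19 (95% interval -0.49 to 0.40). Crtap, a partner of the prolyl 3-hydroxylase, gave -0.13 ± 0.09 (adjusted p = 0.483).

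Of the 40 genes, 15 had 1 probe set and 25 had several. The log2 fold changes of the several probe sets all had the same sign in 17 of the 25 and differed in sign in 8. In 15 of the 40 genes (37.5%) the groups did not overlap, against 30.4% of all genes, with 7 genes (17.5%) above and 8 (20.0%) below, against 17.3% and 13.1% of all genes.

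Beyond the 40 genes, 79 of 87 listed genes of collagen modification, secretion, trimming, crosslinking, binding and of the basement membrane were measured. Of these 2 rose and 4 fell in limma, against 4.98% and 1.24% of all genes. With the block 7 passed as higher and 11 as lower, against 8.79% and 4.65% of all genes. The median log2 fold change of the 79 was -0.01. Loxl1, a lysyl oxidase relative that crosslinks elastin and collagen, measured 10.74, 10.96 and 10.96 at 48 hpi, against 10.23, 10.43 and 10.33 in controls, and rose (0.56 ± 0.10, limma adjusted p = 0.0295). It was called without 48 hpi replicate 1 (0.0424) but not without any one of the others, with adjusted p up to 0.128. Loxl4, another member of that family, measured 7.54, 8.56 and 8.05 at 48 hpi, against 8.88, 9.14 and 9.39 in controls, with -1.09 ± 0.26 (adjusted p = 0.0675, and 0.0104 with the block). Without the block it also passed as lower when 48 hpi replicate 2 was left out (0.0331) or all its probe sets were averaged (0.0234). Pxdn, the enzyme that forms the sulfilimine crosslink of type IV collagen, passed as higher with the block (0.58 ± 0.17, adjusted p = 0.125, and 0.0128 with the block). Without both samples numbered 1 Pxdn also passed (0.049), and Loxl1 did not (0.0626).

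Among the 17 measured genes of prolyl and lysyl modification and folding, P3h2, a prolyl 3-hydroxylase that acts on type IV collagen, fell. It measured 8.03, 8.14 and 8.07 at 48 hpi, against 8.46, 8.65 and 8.68 in controls (-0.52 ± 0.09, limma adjusted p = 0.0301), and was called without control replicate 1 (0.0327) but not without any one of the others, with adjusted p up to 0.124. Of the collagen galactosyltransferases, Colgalt1 passed as higher and Colgalt2 as lower with the block, neither passing without it. Colgalt1 had 0.41 ± 0.10 (limma adjusted p = 0.0862, and 0.0387 with the block) and Colgalt2 had -0.79 ± 0.27 (0.172, and 0.00941 with the block). Of the 13 secretion genes limma called 0, with an unadjusted p under 0.05 in 3 (23.1%, against 23.9% of all genes). With the block Sec13, a coat protein of transport vesicles, passed as higher (0.37 ± 0.12, limma adjusted p = 0.148, and 0.0405 with the block). Of the 6 measured propeptide proteases limma called 0, with an unadjusted p under 0.05 in 0 (23.9% of all genes). With the block Adamts3 passed as lower (-0.36 ± 0.31, limma adjusted p = 0.586, and 0.0437 with the block).

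Of the 12 measured cartilage and remaining chains, 1 fell in limma and 5 passed as lower with the block, against 1.24% and 4.65% of all genes. Their median log2 fold change was -0.38. Col2a1 belongs both to this list and to the chondrocyte markers. Col10a1, the chain of hypertrophic cartilage, fell. It measured 10.52, 10.78 and 10.19 at 48 hpi, against 11.33, 11.52 and 11.18 in controls (-0.85 ± 0.17, limma adjusted p = 0.0368), and was called without 48 hpi replicate 2 (0.033) but not without any one of the others, with adjusted p up to 0.11. Col11a1, Col9a2 and Col11a2 passed as lower with the block but not by group alone (-0.72, -0.65 and -0.61), and Col9a2 passed without the block when its probe sets were averaged (0.0407). In the receptor list, Itga10, a collagen-binding integrin chain of chondrocytes, fell (-0.61 ± 0.12, adjusted p = 0.039), a call kept without control replicate 1 (0.0234) and lost without any one of the others, with adjusted p up to 0.146. Mrc1, a mannose receptor that takes up collagen and marks macrophages, rose. It measured 9.81, 9.34 and 9.84 at 48 hpi, against 8.10, 7.96 and 7.86 in controls (1.69 ± 0.15, adjusted p = 0.00205). Lair1, an inhibitory collagen receptor of leukocytes, and Itgb1, the shared beta chain of collagen-binding integrins, passed as higher with the block but not by group alone (0.77 and 0.45), and Lair1 passed without the block when dim probe sets were left out (0.0404) or its probe sets were averaged (0.0145). Of 15 further basement membrane genes only Lamc3, a laminin chain, was called (-0.63 ± 0.10, adjusted p = 0.0185), as lower, and lost its call without 48 hpi replicate 3 (0.0774) or control replicate 2 (0.0527) or 3 (0.0696).

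**Figure D5:**
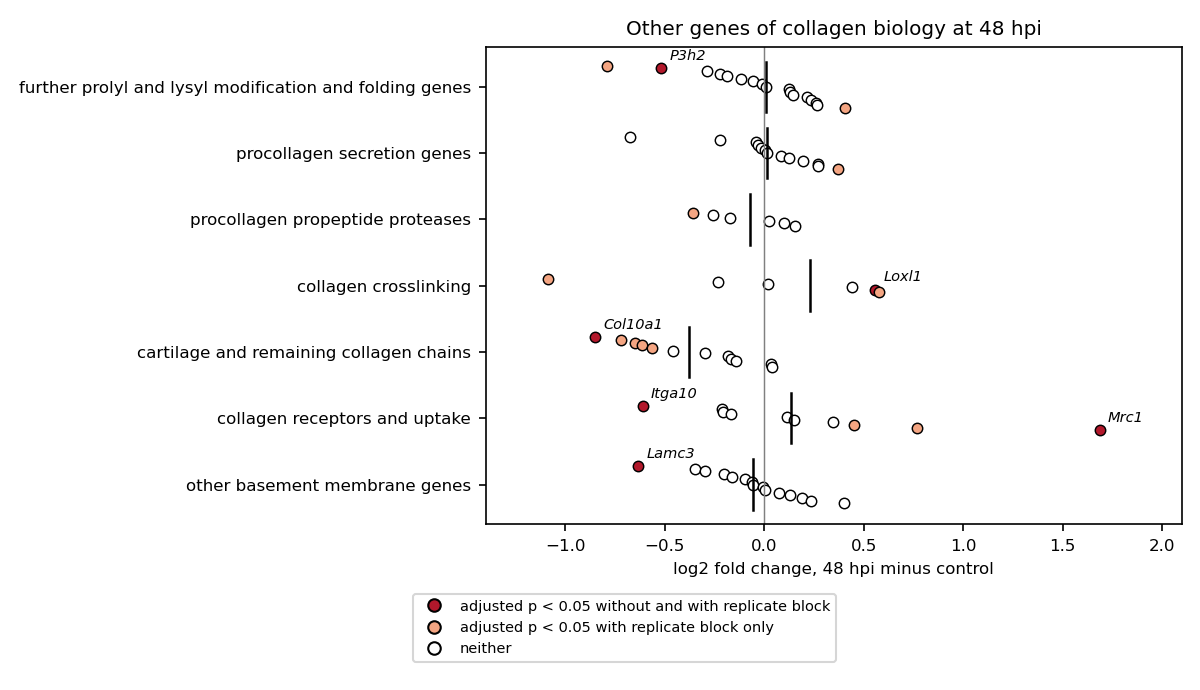
The log2 fold change, 48 hpi minus control, is plotted on the x axis for the 79 further genes, by list, with a vertical bar at the median of each list. Genes that passed without the block are named, with Mrc1 at 1.69 farthest to the right. The list of cartilage and remaining chains has its median at -0.38.

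As a check of the tissue, fibroblast markers had a mean level of 11.27 to 11.47 at 48 hpi and 11.36 to 11.64 in controls, and 2 of 11 fell. With the block, 3 of the 11 passed as higher (Thy1, Postn and Col1a1) and 4 as lower (Dpt, Pi16, Scara5 and Fap). This list shares Col1a1 and Col3a1 with the 40 genes. Over all genes, 4.98% passed as higher and 1.24% as lower, or 8.79% and 4.65% with the block. In endothelium, 3 of 10 markers rose (4 with the block), at 7.54 to 7.85 at 48 hpi and 7.20 to 7.52 in controls. Of 9 measured macrophage markers 7 rose and 8 passed with the block (8.98 to 9.38 at 48 hpi, 7.63 to 7.81 in controls), as did 3 of 8 neutrophil markers, or 4 with the block (6.45 to 7.0 at 48 hpi, 5.01 to 5.67 in controls) and 7 of 7 genes of cell division (7.65 to 8.16 at 48 hpi, 4.69 to 5.13 in controls). Of 10 smooth muscle and pericyte markers limma called 0, with an unadjusted p under 0.05 in 0 (23.9% of all genes). With the block it also called 0, with an unadjusted p under 0.05 in 3 (30.9% of all genes). The part of these cells in the values of Col18a1, Col4a1 and Col4a2, which vessels also express, was not tested.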

How the data were processed

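The deposited values are robust multi-array analysis (RMA) expression values on the log2 scale, which the authors made from 1 Affymetrix mouse genome array per sample. RMA corrects background, normalizes quantiles over arrays and summarizes per probe set. The submitters' processing notes name Partek 6.5 and Affymetrix Expression Console 1.1. RMA removes any shift common to most genes, and folds of dim genes are compressed. The number of arrays limits the precision.

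Of 45101 probe sets, 64 Affymetrix controls were left out. The annotation gave 1 symbol to 34945 of the others, several to 932 and none to 9160, and 34943 were matched to RefSeq (GRCm38.p6), leaving 18161 genes. Samples were grouped by their titles. The test was limma 3.58.1 in R 4.3.3 (lmFit, eBayes), two-sided, with group as the only factor and adjustment over 45037 probe sets at 0.05. It had 4 residual degrees of freedom and 3.21 prior ones. Every SE is of this fit. It was tested on simulated data in which samples of the same number did not deviate together, so that test does not bear on the pairing described below. Arrays correlated at 0.987 to 0.994 within a group and 0.974 to 0.989 between groups, with no identical pair.

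After the group means were removed, samples sharing a replicate number deviated together (r = 0.62, 0.36 and 0.34 across probe sets). For samples of unlike numbers, r was -0.43 to -0.36 where 1 of them was numbered 1. Between numbers 2 and 3 it was 0.18 and 0.11. The shared deviation was thus clearest for number 1, and numbers 2 and 3 were less distinct from each other. The pairing comes from these values, since the labels name biological replicates only, and the blocked value (2 residual degrees of freedom) is given beside a result where it changed the call. The members and lists were chosen with earlier results of these data known. All 40 genes are accounted for. Those called in either fit are named with every sample, others by role with at most 4 named, except in the processing role, where all 7 others are named, 3 of them beyond this limit and after their values were seen. Of further lists, at most 4 genes called in either fit are named, by size of change, and Col2a1 only as a gene shared between lists. The fibroblast and epithelial markers and Lyz2 were chosen for naming after their values were seen. Alternatives were ANOVA, centring, a second quantile normalization, a trended prior, leaving out dim probe sets, other rules for probe sets, leaving out each sample, and, chosen after seeing the data, leaving out both samples numbered 1. Of the listed genes, 8 further genes and 6 markers are not analysed here, and neither are other comparisons of the study.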

Additional observations from a re-analysis of the deposited data

How the results depend on the processing

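Of the 40 genes, 2 were higher and 4 lower. ANOVA called 0 and 0, with an unadjusted p under 0.05 in 11 (21.2% of all genes), the replicate block 10 and 11, the block with dim probe sets left out 11 and 11, and leaving out both samples numbered 1 called 2 and 1, losing Col4a4, Col4a6 and Col8a2. Without 1 sample the counts ran from 1 to 2 and from 1 to 4. Of 79 further genes (2 higher, 4 lower), ANOVA called 0 and 0, with an unadjusted p under 0.05 in 16, the block 7 and 11, and leaving out both samples numbered 1 called 2 and 1, the higher ones being Mrc1 and Pxdn. Without 1 sample the counts ran from 1 to 2 and from 0 to 3. Over all genes (904 higher, 226 lower), ANOVA called 41 and 4, the block 1596 and 844, and leaving out both samples numbered 1 called 413 and 75. Without 1 sample the counts ran from 349 to 647 and from 17 to 98. Markers called as lower were 6, 14 with the block, and 0 to 5 without 1 sample. The pairing by replicate number thus moved these counts by more than 1.5 times, and every one of the called genes of the 40 and of the 79 kept its call with it.

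Centring, the trended prior, the second quantile normalization and leaving out dim probe sets kept the 6 called genes. Leaving out dim probe sets also gained Col23a1 and Col25a1, the second quantile normalization Col25a1, and the mean of all probe sets Col23a1. The mean of all probe sets and the probe set with the largest spread each lost Col4a6 (adjusted p = 0.111 and 0.388). Among the 40, signs changed in genes near 0. Col19a1 was -0.078 without both samples numbered 1, -0.14 with the mean of probe sets and -0.33 with the probe set of largest spread, and Serpinh1 was 0.013 with the mean of probe sets. Of the further genes named, Itgb1 was -1.12 with the probe set of largest spread (adjusted p = 0.254). Without 1 sample, log2 fold changes ran from -0.061 to 0.19 for Col1a2, -0.11 to 0.23 for Col6a1, -0.23 to 0.091 for Col16a1, -0.14 to 0.20 for Col19a1, -0.26 to 0.17 for Col17a1 and -0.22 to 0.12 for Serpinh1. The cause was not tested. With 3 arrays a group, a p that misses the threshold does not show that a gene did not differ.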
